A study of Gallus gallus with 18 samples.

Results

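The 18 embryos of this series were ranked by their own signal of OTX2, a homeobox gene of the anterior embryo, and the 9 embryos with the highest signal (OTX2-high) were set against the 9 with the lowest (OTX2-low). All 18 of the 18 embryos entered, 1 array each: 6 males and 3 females were OTX2-high, and 3 males and 6 females were OTX2-low. The embryos were White Leghorn chickens at Hamburger and Hamilton stage 4 (day 1), held for 3 h in culture, and a square of 400 micron a side, with all germ layers, was cut from each across the streak, at 70% to 90% of its length. The labels name no treatment. Per the study's methods some embryos had been electroporated with plasmids to monitor the procedure. The plasmids carried various constructs, of which only a fluorescent reporter is named. Which embryos were electroporated is not stated. The study reports that its sexually dimorphic genes did not differ statistically between control and electroporated embryos of like sex. The part of electroporation in the values given here was not tested. The 2 sets of 9 are therefore not groups of the study: they were drawn from a measured value, and each difference below is an association with OTX2 across pieces of tissue. The pieces hold several cell types, so that fewer cells expressing a gene and less RNA per cell cannot be told apart.

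The primitive streak is the groove through which epiblast cells move inwards to form mesoderm and endoderm. At its anterior tip lies Hensen's node, the organizer, which secretes antagonists of BMP and WNT signals and gives rise to the prechordal plate and notochord. OTX2 marks the anterior epiblast and the anterior mesendoderm, while WNT and FGF signals, the CDX genes and the HOX genes mark progressively more posterior streak. Retinoic acid, made by the enzyme ALDH1A2 in the mesoderm beside and behind the node, is a further posterior signal.

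OTX2 signal varied 15.0-fold between embryos. It is given in MAS5 units, in which each array was scaled to a trimmed mean of 500. In OTX2-high embryos it was 4764 in male 8, 3880 in female 9, 2232 in male 5, 1694 in male 1, 1482 in male 9, 1412 in female 6, 1021 in male 7, 995 in female 1 and 935 in male 2. In OTX2-low embryos it was 816 in female 3, 722 in male 6, 607 in female 5, 596 in female 8, 577 in female 2, 396 in female 7, 376 in male 3, 358 in male 4 and 318 in female 4. The step between the last OTX2-high embryo (male 2, 935) and the first OTX2-low embryo (female 3, 816) was only 1.15-fold, so embryos on either side of it were close. Male 8 and female 9 stood well above the rest, and male 5 lay nearer to male 1 than to them. The other OTX2 probeset, which did not enter the ranking, ranged over 147 to 589 in OTX2-high embryos with a median of 210, and over 66.9 to 163 in OTX2-low embryos with a median of 102. It reached the detection level of 129, the signal used here as the lower limit of expression, in 9 of 9 OTX2-high embryos and in 2 of 9 OTX2-low embryos. On this probeset male 1 (407) lay above female 9 (317) and male 5 (302). Both probesets read the gene that chose the embryos, and neither was tested.

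**Figure D1:**
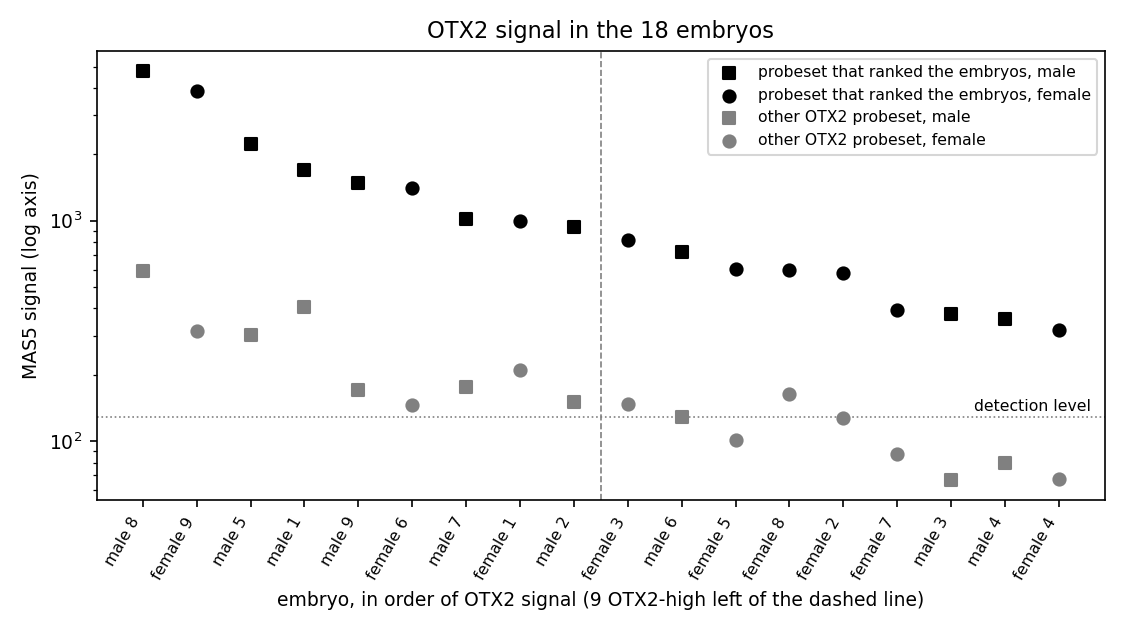
MAS5 signal (log axis) of both OTX2 probesets in each embryo, in order of the ranking probeset, with squares for males and circles for females. The ranking probeset spans 318 to 4764 with a small step (935 against 816) at the dashed line that divides OTX2-high from OTX2-low embryos.

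Array quality measures did not differ detectably between the 2 sets, though both 3' to 5' ratios had lower means in OTX2-high embryos. The ratio of beta actin was 6.35 ± 1.30 in OTX2-high and 7.03 ± 1.43 in OTX2-low embryos (SD, exact permutation test, adjusted p = 0.533). The number of probesets at or over the detection level was 14733 ± 566 in OTX2-high and 14661 ± 354 in OTX2-low embryos (SD, n = 9 each; exact permutation test, 2-sided, adjusted p = 0.749 over 7 measures), and the 3' to 5' ratio of GAPDH, a measure of RNA integrity, was 2.76 ± 0.51 and 3.03 ± 0.47 (adjusted p = 0.533). The first principal component of all tested probesets, with 17.3% of the variance, was 14.3 ± 18.8 in OTX2-high and -14.3 ± 14.9 in OTX2-low embryos (exact permutation adjusted p = 0.0216). Female 9 and males 8 and 5, of the highest OTX2, scored 33.4 to 42.3 on it. Male 6, an OTX2-low embryo, scored 22.8, above every other embryo outside these 3. These 4 embryos stand apart, and values without them are given beside named results that they move by over 1.5 times or whose call they end. Of the 24 calls below, 12 passed in the fit without them. The second component, with 13.3%, separated the sexes and did not differ detectably between the 2 sets (adjusted p = 0.749).

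Of 14538 probesets tested with sex as a covariate, 24 passed an adjusted p of 0.05 (limma, Benjamini-Hochberg), which is 0.165% of those tested: 15 were higher in OTX2-high embryos (0.103%) and 9 lower (0.0619%). At an unadjusted p of 0.05, 766 were higher (5.27%) and 829 lower (5.7%). The 24 probesets read 16 genes, with 7 probesets of no named gene. All 24 had the same sign in males and in females alone, but they had been chosen on these embryos, and no probeset passed within males alone. The number of calls depended on single embryos: it was 1 without male 3 and 240 without male 6. It was 0 when the GAPDH ratio was added as a covariate.

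The largest rise was that of NPBWR1, a G protein-coupled receptor for neuropeptides B and W. Its signal was 298 at the lowest, 467 at the median and 944 at the highest in OTX2-high embryos, against 45.9, 100 and 236 in OTX2-low embryos, with no overlap. The difference was 2.17 ± 0.30 on the log2 scale (SE), a 4.50-fold change (adjusted p = 0.00905), and it passed in 17 of 18 fits that each left out 1 embryo. Only 4 OTX2-low embryos reached the detection level, and the difference was 1.78 with signals floored at that level. The smallest adjusted p, 0.00885, was that of NXPH1, which encodes neurexophilin 1, a secreted ligand of neurexins. Its signal was 160, 238 and 357 (lowest, median, highest) in OTX2-high embryos and 105, 132 and 164 in OTX2-low embryos, a difference of 0.96 ± 0.13. NXPH1 alone among the calls passed in all 18 leave-one-out fits. Calls other than NXPH1 and NPBWR1 passed in 4 to 15 of these fits. GXYLT1 and FSTL4 passed in only 4, WNT5A, ETV1 and GJB6 in 6, and CHODL and TMEM37 in 9.

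SFRP1, a secreted antagonist of WNT ligands, rose on both probesets tested, of 4 on the array. The one with the smaller p read 352, 613 and 983 in OTX2-high embryos and 99.4, 245 and 363 in OTX2-low embryos, so that the ranges overlapped only at their ends. It rose 3.08-fold (log2 1.62 ± 0.25, adjusted p = 0.0183), and the brighter one rose by log2 1.34 ± 0.22 (adjusted p = 0.0183). All 9 OTX2-high embryos had more SFRP1 than the OTX2-low median.

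The remaining named genes that rose were SPTSSB, LPAR4, TMEM37, GJB6, FSTL4 and PCYT2. SPTSSB, a small subunit of serine palmitoyltransferase, read 252, 387 and 573 in OTX2-high and 142, 166 and 329 in OTX2-low embryos (log2 1.13 ± 0.18, adjusted p = 0.0183). LPAR4, a receptor of lysophosphatidic acid, read 856, 1341 and 1845 in OTX2-high and 580, 795 and 857 in OTX2-low embryos (log2 0.85 ± 0.14, adjusted p = 0.0183), so that its 2 sets nearly separated, and its other probeset had a difference of 0.63 ± 0.15 that did not pass (adjusted p = 0.0836). TMEM37, a transmembrane protein, rose by log2 1.00 ± 0.18 (adjusted p = 0.0320). Only 3 OTX2-low embryos reached the detection level for this probeset, and the difference was 0.76 with signals floored there. The brighter TMEM37 probeset had a larger difference of 1.67 ± 0.35 that did not pass (adjusted p = 0.0578). GJB6, a connexin of gap junctions, rose by log2 1.28 ± 0.25 (adjusted p = 0.0496). Only 7 OTX2-high and 2 OTX2-low embryos reached the detection level for it, and the difference was 0.76 with signals floored at that level. Its other probeset had a difference of 1.02 ± 0.23 (adjusted p = 0.0622). FSTL4, a follistatin-like protein, rose by log2 0.63 ± 0.12 (adjusted p = 0.0496), and its other probeset had a difference of 0.68 ± 0.17 (adjusted p = 0.0910). PCYT2, an enzyme of phosphatidylethanolamine synthesis, rose by log2 0.53 ± 0.09 (adjusted p = 0.0185) on 1 probeset, whereas its other probeset had a difference of -0.06 ± 0.15, so the gene's call rests on a single probeset. Without the 4 embryos that stand apart, SPTSSB passed, and LPAR4 (adjusted p = 0.0573), TMEM37 (0.0538), PCYT2 (0.0502), GJB6 (0.109) and FSTL4 (0.0896) did not.

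The clearest fall was that of CDX4, a caudal-type homeobox gene of the posterior streak. Its signal was 940, 2108 and 4084 (lowest, median, highest) in OTX2-high embryos and 3477, 7128 and 11242 in OTX2-low embryos. It fell by 1.97 ± 0.32 on the log2 scale, to 0.255 times the OTX2-low level (adjusted p = 0.0183). The overlap came from males 7 and 2 on the OTX2-high side, both of low OTX2 rank in their set, and from female 2 on the other, with male 6 (4115) close above.

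WNT5A, a ligand of the streak that acts mainly outside beta-catenin signalling, read 1011, 2222 and 3862 in OTX2-high embryos and 3416, 5942 and 7641 in OTX2-low embryos. It fell by 1.49 ± 0.27 on the log2 scale (adjusted p = 0.0322). The other 2 WNT5A probesets had differences of -1.34 and -1.22 that did not pass (adjusted p = 0.0524 each).

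ETV1, an ETS transcription factor downstream of FGF signals, read 1622, 2062 and 2792 in OTX2-high and 2407, 3507 and 4189 in OTX2-low embryos, and fell by 0.66 ± 0.13 on the log2 scale (adjusted p = 0.0496). CHODL, a membrane lectin, read 179, 208 and 285 in OTX2-high and 296, 335 and 493 in OTX2-low embryos with no overlap, and fell by 0.68 ± 0.12 on the log2 scale (adjusted p = 0.0320), while its brighter probeset had a difference of -0.42 ± 0.12 that did not pass (adjusted p = 0.160). GXYLT1, a xylosyltransferase that extends sugars on Notch, read 3755, 5771 and 6391 in OTX2-high and 6474, 8538 and 12924 in OTX2-low embryos, again without overlap, and fell by 0.79 ± 0.16 on the log2 scale (adjusted p = 0.0496). The other 2 GXYLT1 probesets had differences of -0.97 ± 0.21 and -0.95 ± 0.32 that did not pass (adjusted p = 0.0594 and 0.239). ETV1 passed without the 4 embryos that stand apart, and CHODL (adjusted p = 0.0891) and GXYLT1 (0.0501) did not. Non-overlapping ranges were rare: 1 of all tested probesets was higher without overlap (0.00688%) and 3 were lower (0.0206%).

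Several genes with the next smallest p lay just past the threshold. MSX2, a homeobox gene induced by BMP, read 53.9, 117 and 251 in OTX2-high embryos, of which 3 reached the detection level, and 156, 332 and 616 in OTX2-low embryos, of which 9 did (log2 difference -1.51 ± 0.30, adjusted p = 0.0524). TENM4, a teneurin of the cell surface, had a difference of -0.95 ± 0.19, and DIRC2, a lysosomal membrane protein, one of -1.06 ± 0.22 (adjusted p = 0.0524 each). None of the 3 counts as changed.

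**Figure D2:**
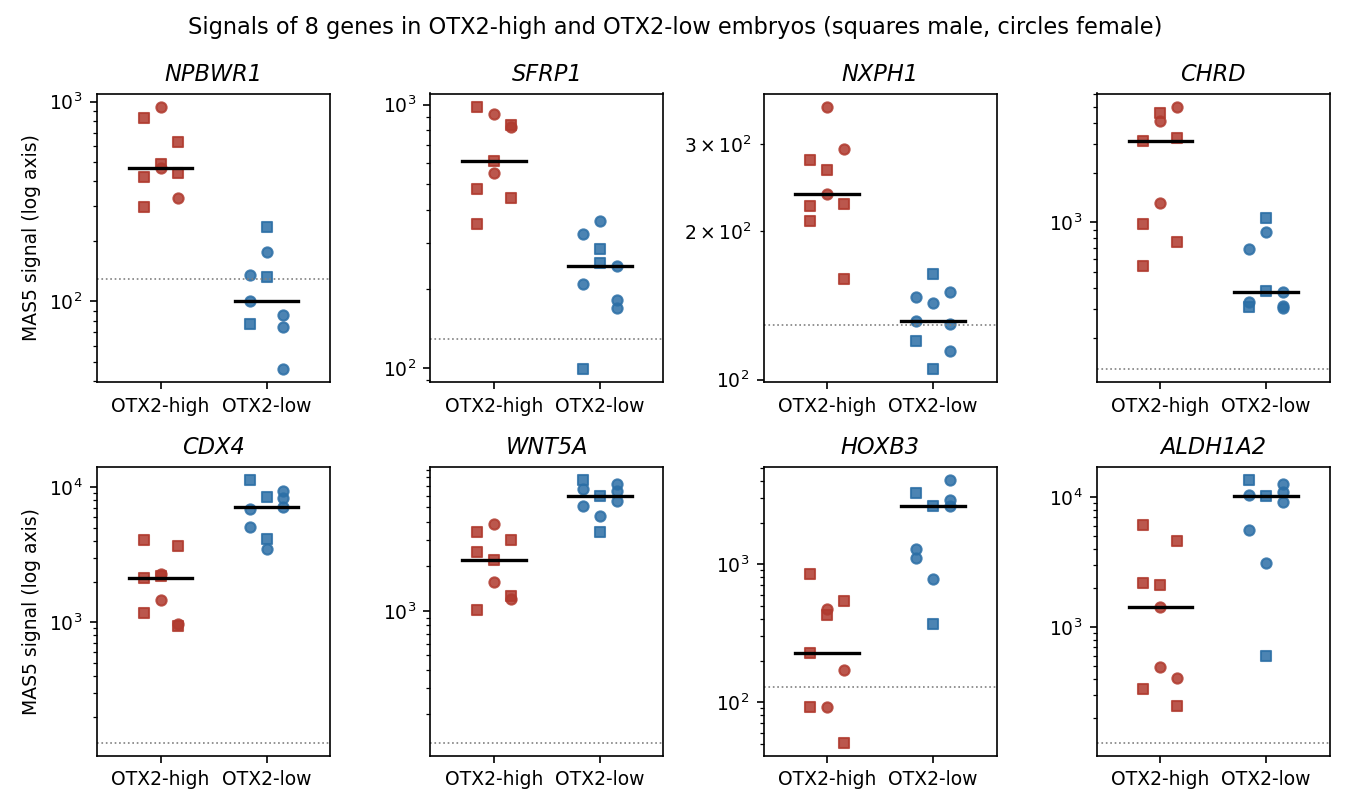
MAS5 signal (log axis) of 8 genes in each of the 9 OTX2-high and 9 OTX2-low embryos, with bars at the medians and a dotted line at the detection level. NPBWR1 (298 to 944 against 45.9 to 236) has no overlap, and ALDH1A2 has the widest spread within each set.

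In the list of node, prechordal and anterior endoderm genes, 14 of 26 genes were tested, and SFRP1 alone passed the adjusted test (1 of 14 higher, against 0.102% of all 7844 genes, each by its brightest probeset). At an unadjusted p of 0.05, 6 were higher and 2 lower, against 5.37% and 5.32% of all genes. The median difference of the list was 0.55, against -0.01 over all genes, and without the 4 embryos that stand apart it was 0.18, with 4 higher and 1 lower.

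CHRD encodes the BMP antagonist chordin. It read 3119 in male 8, 4087 in female 9, 3256 in male 5, 981 in male 1, 4596 in male 9, 5019 in female 6, 544 in male 7, 1315 in female 1 and 761 in male 2, all OTX2-high. In OTX2-low embryos it was 302 at the lowest, 378 at the median and 1061, in male 6, at the highest. Of the OTX2-high embryos 5 were at 3119 or more and the other 4 lay between 544 and 1315, and the difference of 2.24 ± 0.47 did not pass (adjusted p = 0.0550).

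HHEX, a homeobox gene of the anterior endoderm picked after its values were seen, was high mainly in the 3 embryos with the most OTX2. It read 5611 in male 8, 5088 in female 9 and 1728 in male 5, and 375 to 1060 in the other OTX2-high embryos, against 307 to 641 in OTX2-low embryos (log2 1.38 ± 0.49, adjusted p = 0.264). The difference was 0.60 without the 4 embryos that stand apart. FOXA2, a forkhead gene of node and endoderm, read 516, 561 and 1006 in OTX2-high and 330, 491 and 566 in OTX2-low embryos (log2 0.45 ± 0.15, adjusted p = 0.236). It was 0.23 without those 4.

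FST, the activin antagonist follistatin, was also picked after its values were seen. It differed by 1.56 ± 0.55 (adjusted p = 0.261), and was highest in other embryos than HHEX. The other FST probeset had a smaller difference of 0.81 ± 0.41 (adjusted p = 0.496). CFC1, a co-receptor of Nodal, differed by 0.83 ± 0.29 (adjusted p = 0.258). SFRP2, another WNT antagonist, had the other sign from SFRP1, at -0.53 ± 0.25 (adjusted p = 0.451). FRZB, a further WNT antagonist, picked after its values were seen, had a difference of -0.27 ± 0.13 (adjusted p = 0.453), and NOG, the BMP antagonist noggin, likewise picked, one of -0.04 ± 0.24 (adjusted p = 0.973). TLE4, a Groucho co-repressor, and TWSG1, a modulator of BMP, had differences of 0.23 ± 0.13 and -0.13 ± 0.17 (adjusted p = 0.546 and 0.836), and TLE4 was at 0.14 without those 4. None of these passed the test.

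GSC, CER1 and ADMP lay under the filter, since fewer than 9 embryos reached the detection level, and they were not tested. CER1 and ADMP were picked after their values were seen. GSC, the organizer homeobox gene goosecoid, read 3319 in male 8, 2163 in female 9 and 392 in male 5, 134 in female 6 and no more than 83.7 in any other embryo. CER1, a secreted antagonist of Nodal, BMP and WNT, read 7707, 2481 and 690 in male 8, female 9 and male 5, and no more than 158 in any other embryo. ADMP, a BMP-like ligand of the organizer, read 620, 1495 and 193 in the same 3 embryos, 145 in female 6 and at most 80.3 elsewhere. All 3 genes were thus highest in the same 3 embryos, those with the most OTX2, and none exceeded 158 in any other embryo. Female 6 was also above the detection level for all 3 genes. CER1 was above it in male 1 (135) and in male 6 (147), an OTX2-low embryo, as well.

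SHH read 5.90 to 78.9 and reached the detection level in no embryo, as did no embryo but male 9 (156) for HESX1. OTX1 and DKK1 matched no probeset. NODAL, FOXA1 and FSTL1 of the node list also reached the detection level in no embryo. The list was thus not uniform: beside the genes that were high in the 3 embryos with the most OTX2 stood others that were not detected or had differences near or below 0.

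**Figure D3:**
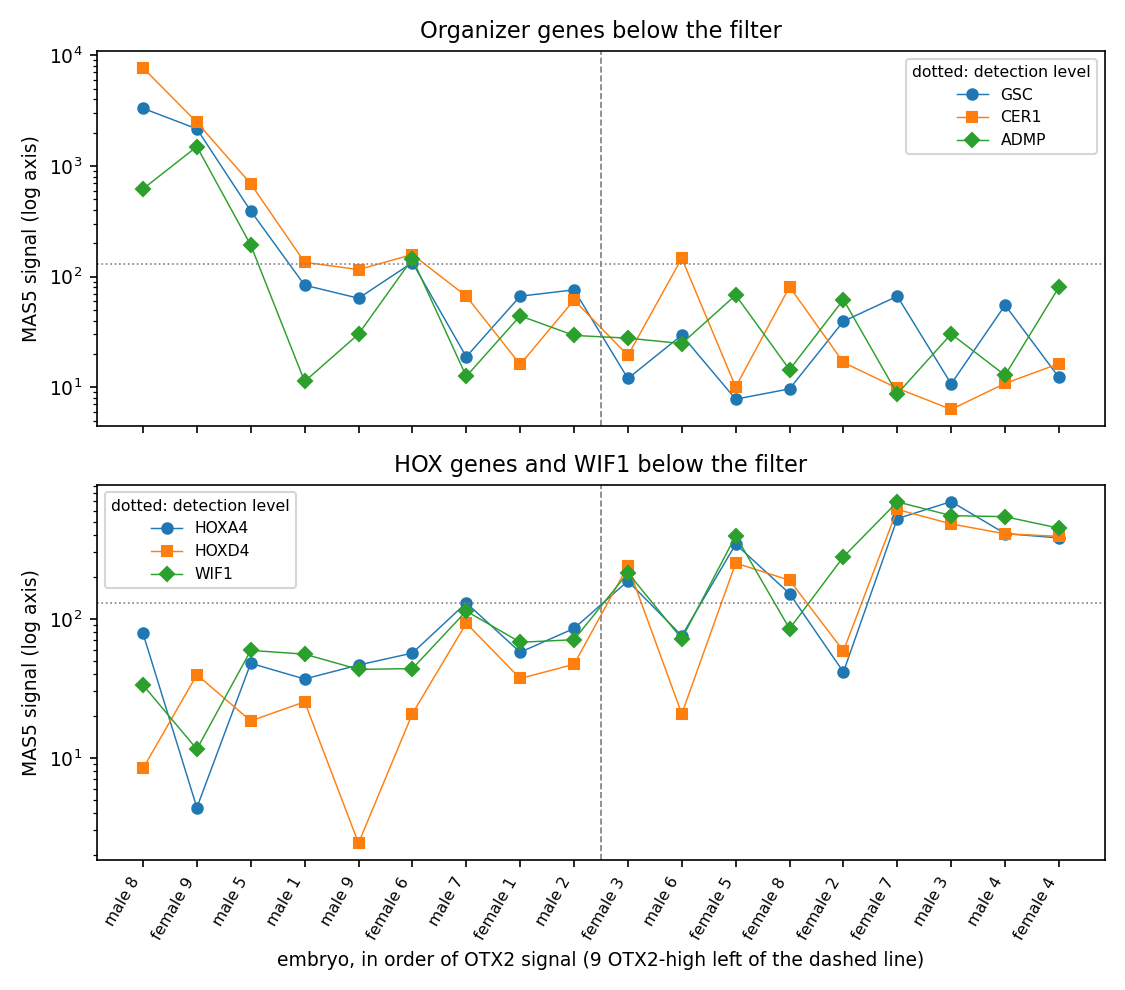
MAS5 signal (log axis) of genes under the filter, by embryo in order of OTX2 signal. GSC, CER1 and ADMP (upper panel) stand above the detection level mainly in male 8, female 9 and male 5, and HOXA4, HOXD4 and WIF1 (lower panel) mainly in OTX2-low embryos.

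All 7 tested genes of the HOX and CDX list had lower signals in OTX2-high embryos, and CDX4 alone passed (1 of 7, against 0.051% of all genes lower). All 7 had an unadjusted p under 0.05, against 5.32% of all genes lower, and the median difference was -1.25. Without the 4 embryos that stand apart 6 of 7 did, with a median of -1.16. The values of the list, other than CDX2, CDX4 and HOXB1, were picked after they were seen.

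HOXB1, from the anterior end of its cluster, read 4071, 10923 and 14883 in OTX2-high and 12710, 16508 and 19901 in OTX2-low embryos (log2 -0.86 ± 0.22, adjusted p = 0.0967), a difference of -0.57 without the 4 embryos that stand apart. The other HOXB1 probeset, which 6 OTX2-high embryos had at the detection level, had a difference of -1.42 ± 0.34 (adjusted p = 0.0727). HOXB3 read 50.9, 225 and 846 in OTX2-high embryos, against 368, 2618 and 4059 in OTX2-low embryos (log2 -2.91 ± 0.60, adjusted p = 0.0524). HOXA3 read 5.1, 74.6 and 474 in OTX2-high embryos, of which 2 reached the detection level, against 115, 1672 and 3132 in OTX2-low embryos, of which 8 did. Its difference of -4.28 ± 0.89 (adjusted p = 0.0524) rests partly on signals under that level, and was -2.74 with signals floored there. HOXB2 had a smaller difference of -0.77 ± 0.31 (adjusted p = 0.350).

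CDX1 read 355, 960 and 1380 in OTX2-high embryos and 651, 1984 and 3711 in OTX2-low embryos (log2 -1.25 ± 0.36, adjusted p = 0.159). CDX2 had a difference of -0.80 ± 0.23 (adjusted p = 0.156) on its brighter probeset and 0.02 ± 0.17 on the other, so its probesets disagree.

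Of the HOX genes under the filter, HOXA2 reached the detection level in 0 OTX2-high and 6 OTX2-low embryos, HOXD4 in 0 and 7, HOXA4 in 1 and 7, and HOXB4 in 2 and 6. The others, HOXA5, HOXA7, HOXB5, HOXB8 and HOXC8, reached it in no embryo. HOXD4 read 2.4 to 92.8 in OTX2-high embryos and 20.7 to 612 in OTX2-low embryos. In 2 OTX2-low embryos, female 2 and male 6, HOXA2, HOXA4 and HOXD4 stayed under the level, and HOXA3 was lowest in the OTX2-low set in female 2 (115) and next lowest in male 6 (295).

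Of 7 tested retinoic acid genes none passed the adjusted test. At an unadjusted p of 0.05, 1 was higher and 4 lower, against 5.37% and 5.32% of all genes, and the median difference was -0.52. Without the 4 embryos that stand apart it was 0 and 5, with a median of -0.67. The genes of this list are named in view of their values. ALDH1A2, the main retinoic acid synthase of the embryo, read 332 in male 8, 489 in female 9, 245 in male 5, 2170 in male 1, 2084 in male 9, 401 in female 6, 6122 in male 7, 1427 in female 1 and 4617 in male 2. In OTX2-low embryos it read 10267 in female 3, 594 in male 6, 10923 in female 5, 5610 in female 8, 3075 in female 2, 12552 in female 7, 13464 in male 3, 10192 in male 4 and 9196 in female 4. Except for males 7 and 2 no OTX2-high embryo passed 2170, and except for male 6 no OTX2-low embryo was under 3075, a difference of -2.56 ± 0.75 (adjusted p = 0.164). Its other probeset had a difference of -2.57.

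RDH10, which makes the retinaldehyde that ALDH1A2 uses, had a difference of -0.64 ± 0.23 (adjusted p = 0.272), DHRS3, which turns retinaldehyde back to retinol, one of -0.96 ± 0.33 (adjusted p = 0.254), and the receptor gene RARB one of -0.52 ± 0.18 (adjusted p = 0.241). The other 2 RDH10 probesets had differences of -0.70 ± 0.22 and -1.35 ± 0.34 (adjusted p = 0.202 and 0.0899). ALDH1A3, another synthase, was near the detection level, with 7 OTX2-high and 2 OTX2-low embryos at or over it (log2 0.68 ± 0.27, adjusted p = 0.334). The 2 synthases thus had differences of opposite sign.

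Of 15 tested WNT ligands and antagonists none passed by its brightest probeset, while WNT5A passed on another, as given above. At an unadjusted p of 0.05, 3 were higher and 5 lower, against 5.37% and 5.32% of all genes, and the median difference was -0.21. The tested genes given below are all on the lower side, and the 3 higher are not named. Without the 4 embryos that stand apart the counts were 1 higher and 5 lower. Picked after their values were seen, WNT3A, a ligand of the streak, read 4555, 7166 and 8309 in OTX2-high and 8160, 9323 and 11167 in OTX2-low embryos (log2 -0.52 ± 0.12, adjusted p = 0.0727), a difference of -0.32 without those 4. WNT5B had a difference of -0.56 ± 0.14 (adjusted p = 0.0899), WNT8A one of -0.62 ± 0.16 (adjusted p = 0.110), and AXIN2, a target of beta-catenin signalling, one of -0.33 ± 0.10 (adjusted p = 0.164). WIF1, a secreted WNT inhibitor under the filter, reached the detection level in 0 OTX2-high and 7 OTX2-low embryos, at 11.5 to 114 and 71.9 to 694. It thus ran the other way from SFRP1. FZD8, a WNT receptor also under the filter, reached the detection level in 7 OTX2-high and 1 OTX2-low embryos. WIF1 and FZD8 were picked after their values were seen. Of the other list members under the filter, WNT11B reached the level in 3 and 3 embryos and TCF7L2 in 2 and 5. The remaining ones reached it in no embryo.

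Of 18 tested FGF ligands, receptors and feedback genes ETV1 alone passed (1 lower, against 0.051% of all genes), and the median difference was 0.03. At an unadjusted p of 0.05, 2 were higher and 1 lower, against 5.37% and 5.32% of all genes. With the 4 embryos that stand apart left out, 2 were higher and 3 lower. FGF18, picked after its values were seen, read 1333, 2578 and 5654 in OTX2-high and 448, 1280 and 2753 in OTX2-low embryos (log2 1.38 ± 0.40, adjusted p = 0.157).

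Of 18 tested streak and paraxial mesoderm genes none passed the adjusted test, with 5 higher and 4 lower at an unadjusted p of 0.05, against 5.37% and 5.32% of all genes, and a median difference of -0.18. Leaving out the 4 embryos that stand apart gave 4 higher and 2 lower, and a median of -0.09. TBXT, the Brachyury gene of the whole streak, was close in both sets, at 21977, 30219 and 34981 in OTX2-high and 26861, 29560 and 39141 in OTX2-low embryos (log2 -0.14 ± 0.10, adjusted p = 0.661). MSGN1 and DLL1, genes of presomitic mesoderm, were low only in a few OTX2-high embryos. MSGN1 read 7118 in male 8 and 3339 in female 9 and 17093 or more in all others (log2 -0.77 ± 0.30, adjusted p = 0.334). DLL1, the Notch ligand, read 6706 in male 8, 1167 in female 9, 21596 in male 5 and 26165 or more in all others (log2 -1.10 ± 0.52, adjusted p = 0.454). Without the 4 embryos that stand apart the differences were -0.24 and -0.16. LFNG, a glycosyltransferase that modifies Notch, had a difference of -0.84 ± 0.49 (adjusted p = 0.566) and of -0.14 without them.

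Within the same list, EOMES, a T-box gene of mesendoderm, read 132, 285 and 807 in OTX2-high and 80.5, 158 and 219 in OTX2-low embryos (log2 1.21 ± 0.35, adjusted p = 0.161). SNAI1, which drives the loss of epithelial contacts, had a difference of 1.07 ± 0.26 (adjusted p = 0.0856), and EVX1, a posterior streak homeobox gene, one of -1.12 ± 0.36 (adjusted p = 0.207), or -0.71 without the 4 embryos. SP8, a zinc-finger gene, had a difference of -1.15 ± 0.46 (adjusted p = 0.350) that was -0.28 without the 4 embryos. EOMES, SNAI1, EVX1 and SP8 were chosen in view of their values, and genes of either sign stood side by side in the list. Not all of the 5 higher genes are named. Of the members under the filter, not tested, RIPPLY1 reached the detection level in 6 OTX2-high and 1 OTX2-low embryos. For RIPPLY2 it was 5 and 1, for FOXC1 5 and 3, and for MIXL1 5 and 2. MIXL1 read 1295 in male 8, 1359 in female 9 and 904 in male 5, and at most 485, in male 6, elsewhere.

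Of 13 tested neural plate and forebrain genes none passed, with 1 higher and 3 lower at an unadjusted p of 0.05, against 5.37% and 5.32% of all genes, and a median difference of -0.12. The counts were 1 higher and 2 lower without the 4 embryos that stand apart. ZIC2, a zinc-finger gene of the neural plate, read 9911, 12849 and 17147 in OTX2-high and 8220, 9389 and 12499 in OTX2-low embryos (log2 0.47 ± 0.11, adjusted p = 0.0727). GBX2, a homeobox gene of the hindbrain side of the neural plate, read 1146, 3441 and 15458 in OTX2-high and 6052, 11043 and 13688 in OTX2-low embryos (log2 -1.39 ± 0.38, adjusted p = 0.134), and its highest value of all was that of an OTX2-high embryo, male 7. ZIC1, picked after its values were seen, had a difference of -2.40 ± 0.74 (adjusted p = 0.189). SOX3, a neural and epiblast gene, had one of -0.47 ± 0.26 (adjusted p = 0.558), CDH2, or N-cadherin, one of -0.17 ± 0.08 (adjusted p = 0.445), and GMNN, or geminin, one of -0.12 ± 0.12 (adjusted p = 0.776). SOX2 lay under the filter, with 3 OTX2-high and 5 OTX2-low embryos at the detection level.

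**Figure D4:**
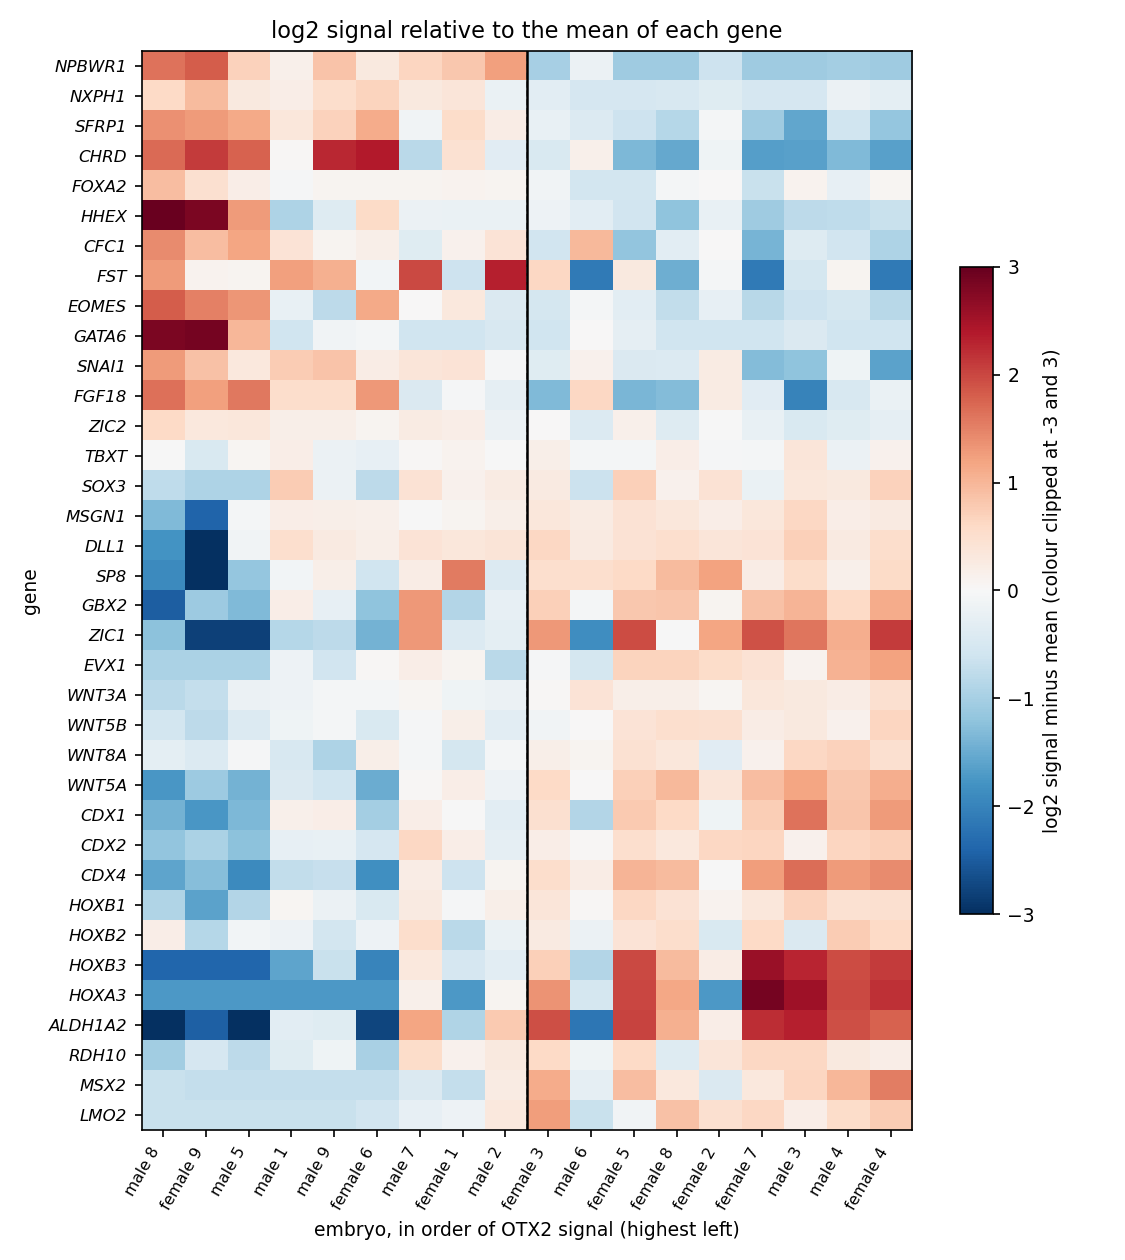
log2 signal of 36 genes in each embryo, in order of OTX2 signal from left to right, relative to the mean of each gene and with signals floored at the detection level. Male 8, female 9 and male 5 carry the strongest colours at the left, and male 6, right of the line, has an ALDH1A2 signal of 594 among OTX2-low embryos of 3075 or more.

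Of 13 tested genes of lateral, ventral and blood mesoderm none passed the adjusted test, with 1 higher and 3 lower at an unadjusted p of 0.05, against 5.37% and 5.32% of all genes, and a median difference of 0.23. The lower ones were MSX2, LMO2, a regulator of blood formation (log2 -1.32 ± 0.39, adjusted p = 0.177), and BMP7 (log2 -0.79 ± 0.22, adjusted p = 0.146). LMO2 reached the detection level in 4 OTX2-high and 8 OTX2-low embryos, and its difference was -0.79 with signals floored there. GATA6, a factor of heart and endoderm, was the higher one (log2 1.50 ± 0.63, adjusted p = 0.372). Its signal was 1373 in male 8, 1417 in female 9 and 391 in male 5, and 102 to 187 in the other OTX2-high embryos, against 23.6 to 198 in OTX2-low embryos, and the difference was 0.71 without the 4 embryos that stand apart. LMO2, BMP7 and GATA6 were chosen in view of their values.

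Lists of other cell types and states had medians near 0. Of 13 tested yolk sac and extraembryonic endoderm genes 1 was higher and 0 lower at an unadjusted p of 0.05, against 5.37% and 5.32% of all genes. The summed signal of the 25 genes of that list on the array was 48591 to 58955 in OTX2-high and 43488 to 60597 in OTX2-low embryos, so the 2 ranges overlapped. Of these 25 genes, 9 reached the detection level in no embryo. Of 10 epiblast and pluripotency genes 1 was higher and 1 lower, of 17 immediate early and stress genes 1 and 2, of 16 glycolysis genes 2 and 0, and of 22 cell cycle genes 0 and 0. The yolk sac and glycolysis lists had 0 higher without the 4 embryos that stand apart. None of these genes passed the adjusted test, and the medians were -0.05 for yolk sac, -0.03 for epiblast, -0.03 for stress, 0.02 for glycolysis and -0.05 for cell cycle genes.

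**Figure D5:**
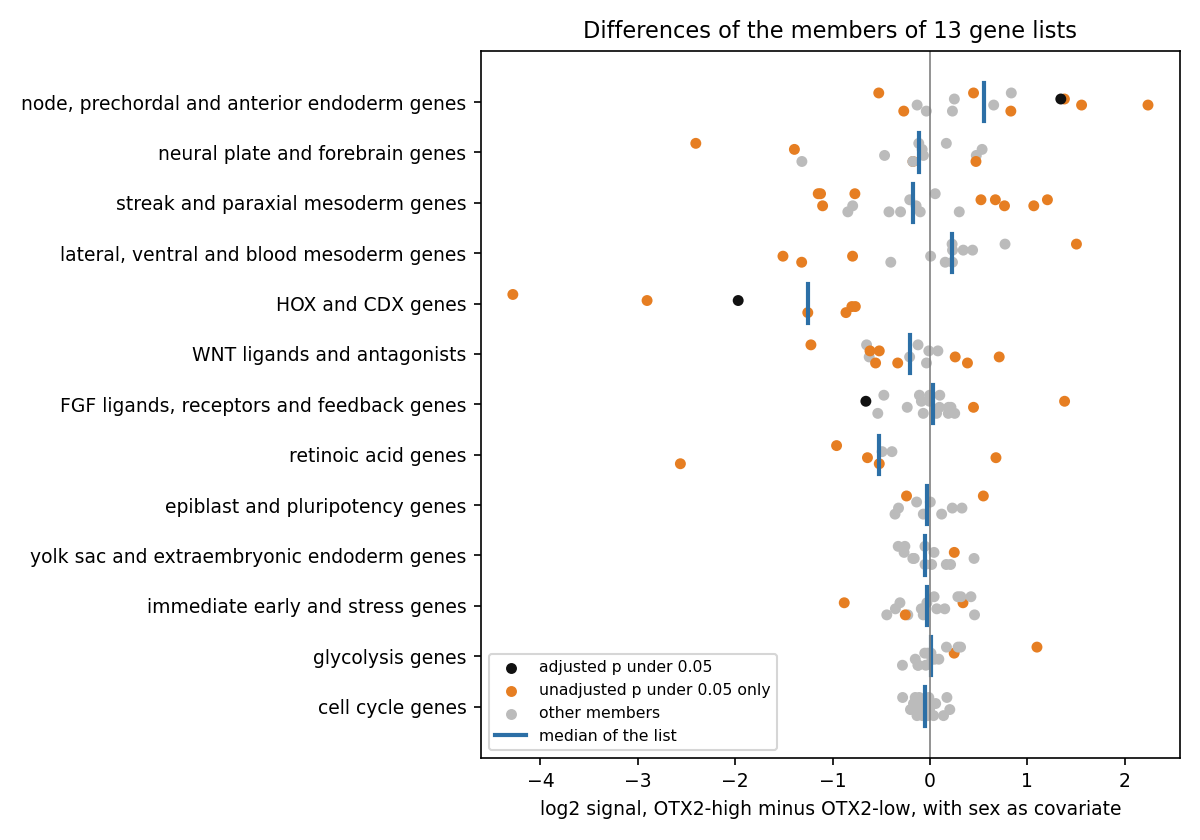
Differences in log2 signal (OTX2-high minus OTX2-low) of the tested members of 13 gene lists, 1 point for each gene by its brightest probeset, with a blue bar at each list's median. All 7 HOX and CDX genes lie below 0 with a median of -1.25, and the node list has a median of 0.55. The cell cycle and glycolysis lists have medians of -0.05 and 0.02.

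Whether the association with OTX2 differed between the sexes was tested with an interaction term. No probeset of 14538 passed (0% called, limma with Benjamini-Hochberg), and 522 had an unadjusted p under 0.05 (3.59%). For NPBWR1 the difference was 1.86 in males and 2.48 in females, for SFRP1 it was 1.59 and 1.65, and for CDX4 it was -1.83 and -2.11. Genes picked here for their wide gaps were ALDH1A2 (-1.55 in males, -3.57 in females), ZIC1 (-1.09, -3.72) and HOXB2 (-0.10, -1.44). Of the 24 calls, 1 had an unadjusted interaction p under 0.05. A difference between the sexes in these associations was not detectable with 9 embryos of each sex. Only 3 females were OTX2-high and only 3 males OTX2-low, so each within-sex difference compared 3 embryos with 6.

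With the log2 OTX2 signal as a continuous term in place of the 2 sets, 352 probesets rose (2.42%) and 373 fell (2.57%) with OTX2, all 24 above among them. This fit gives most weight to the embryos with OTX2 farthest from the mean of their sex, at either end of the range. By gene, 207 rose (2.64%) and 206 fell (2.63%). Of the node list 7 of 14 genes rose and 0 fell, and of the HOX and CDX list 0 rose and 6 of 7 fell. For each doubling of OTX2, NPBWR1 rose by 0.95 ± 0.13 on the log2 scale, SFRP1 by 0.77 ± 0.08, and CDX4 fell by 0.93 ± 0.11. Without the 4 embryos that stand apart, 42 probesets rose and 45 fell with OTX2. Counts by list are not given for this fit without them. In the comparison of the 2 sets, leaving them out moved the median of the node list from 0.55 to 0.18. That of the HOX and CDX list moved from -1.25 to -1.16.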

How the data were processed

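Total RNA of 1 streak piece from each of 18 embryos was amplified and hybridised to Affymetrix chicken arrays. The deposited values are intensity signals on a linear scale, made by the authors with MAS5 (the submitters' processing notes name MAS5 and affy, with no version given in the sources used here), and every array has a trimmed mean of 500. They were used without further normalization, as log2 signal. The replicate embryos are separate animals.

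The OTX2 probeset ranked the embryos. Probesets were tested if their 9th-highest signal was 129 or more. From 38535 probesets, 96 controls and 2 OTX2 probesets were left out, and 14538 were tested: 11661 read 1 gene, 68 several and 2809 none in the platform annotation given. Signals under 129 were taken as not detected. Present calls were not used here.

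limma 3.58.1 in R 4.3.3 (Python 3.11.15 for tables) fitted the 2 sets with sex as covariate, 2-sided, with Benjamini-Hochberg adjustment over all tested probesets. Single array measures had exact permutation tests over all 48620 splits. The fit was tested on simulated data with independent normal noise and no outlying arrays, so that test does not cover the dependence on single embryos. Lists use each gene's brightest tested probeset: 183 of 330 members were tested, 94 lay under the filter and 53 matched no probeset.

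Named genes are those past the test (up to 12 in each direction, and where fewer than 8 passed, those of next smallest p), list members past the test, the brightest members of the node, neural and streak lists, and 14 fixed names. Others are said to be picked after their values were seen. The OTX2 split, the lists and the rules were chosen with earlier results of these data known. Promoter motifs were not examined, as no sequence was used. The number of arrays limits the precision.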

Additional observations from a re-analysis of the deposited data

Results flagged for a closer look

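In each set of 9 embryos, the highest or lowest embryo was marked where its gap to the next exceeded Dixon's 95% limit on log2 signal. This marked 6 of 124 sets, where chance marks about 1 in 20. In OTX2-high embryos, female 9 was lowest with 1167 for DLL1 (next 6706), 583 for LFNG (next 4680) and 45.4 for HOXB2 (next 132), and female 1 was lowest with 97.3 for RARB (next 190). In OTX2-low embryos, male 6 was lowest with 594 for ALDH1A2 (next 3075), and male 3 was highest with 2653 for DHRS3 (next 797).

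Some list members under the filter reached the detection level in 3 or more embryos of one set and in none of the other. In OTX2-high embryos only, GSC reached 3319 and ADMP 1495, both in 4 embryos, while CYP26C1, which degrades retinoic acid, reached 179 and TFAP2C, a transcription factor of early ectoderm, 158, both in 3 embryos. In OTX2-low embryos only, WIF1 reached 694 and HOXD4 612, both in 7 embryos, HOXA2 reached 295 in 6 and GATA3, a factor of non-neural ectoderm, reached 172 in 3. Over the whole array, 163 of 23899 probesets under the filter showed the first pattern and 101 the second. These were not tested.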

How the results depend on the processing

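The count of 24 probesets moved with most choices. All 517 values of the 15 named probesets that passed kept their sign under the alternatives, and 206 of them did not pass. These probesets had been chosen on the same embryos, and the alternatives refit the same arrays, so the kept signs do not test the direction. Of the other named differences checked in this way, TWSG1 alone changed sign (0.0441 in males only). FRZB and NOG were not among those checked. Counts were 42 with 16 added to each signal, 59 with signals floored at the detection level, 12 with 1 probeset for each gene, 77 without the sex covariate, 53 with the number of detected probesets as a covariate, 253 without the 6 embryos of middle rank, 49 without the 4 embryos that stand apart (12 of them among the 24), 44 with array weights and 3 with a linear model without moderation. The continuous term called 725. No probeset passed with no filter on low values (2730 at an unadjusted p of 0.05), with the GAPDH ratio as covariate (1412) or in males only (758), while 2 passed in females only. Quantile normalization gave 19 and the stricter filter 34. Chosen after seeing the data, the continuous term without the 4 embryos called 87, and leaving out the 3 embryos of highest OTX2 called 1, which was none of the 24. The causes were not tested.

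Leaving out 1 embryo gave 1 to 240 calls. Lower counts came without male 3 (1), female 9 (2), female 6 (4), male 4 (5), male 8 (8), female 4 (9), male 5 (9), female 5 (10), female 7 (10) and male 9 (13), and less so without female 1 (17), female 3 (17), female 8 (19) and male 1 (20). Higher counts came without male 6 (240), male 7 (83), male 2 (61) and female 2 (42).

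Embryos of both sexes share replicate numbers, and the correlation of same-numbered deviations ran between -0.14 and 0.17. It was not compared with that of differently numbered embryos, so it cannot decide whether the numbers carry a link. The embryos were treated as unpaired. With the replicate block 0 probesets passed in the main comparison and 0 for the interaction with sex. The interaction called 2 without a filter and 1 without the 4 embryos that stand apart.

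Signals near the detection level limit the sizes of HOXA3, GJB6, MSX2 and LMO2, and of other named genes. With signals floored at that level, the difference was 1.78 for NPBWR1 and 0.76 for TMEM37. It was 0.98 for GATA6, -0.81 for EVX1, 0.42 for ALDH1A3, -1.15 for MSX2 and -0.79 for LMO2. Promoter motif shares were not run.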
